A study of Rattus norvegicus with 12 samples.

Results

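The genes described here encode subunits of ligand-gated ion channels: the GABA-A, glycine and nicotinic acetylcholine receptors, which all belong to the Cys-loop superfamily, and the ionotropic glutamate receptors of the AMPA, kainate and NMDA types. They were taken as all array probes whose annotated symbol begins with Gabr, Glra, Glrb, Gria, Grik, Grin or Chrn, leaving out Grina and the Grip proteins, which are not channel subunits. This gave 49 probes for 48 genes out of 22523 probes on the array. By family there were 15 GABA-A, 4 glycine, 3 AMPA, 6 kainate, 6 NMDA and 15 nicotinic probes. Subunit genes without a named probe were not analysed here.

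The samples were pituitaries and hypothalami of male Wistar rat fetuses collected on gestational day 20. They form 4 groups of 3 arrays: TCDD pituitaries, control pituitaries, TCDD hypothalami and control hypothalami. In the TCDD groups the dam had been given the dioxin 2,3,7,8-tetrachlorodibenzo-p-dioxin (TCDD), dissolved in corn oil, by mouth on gestational day 15. The series text gives the dose as 1 µg/kg while the sample protocols give 1 mg/kg, and the controls are labelled only as controls. No genetic alteration is stated for any group. The study set out to find genes whose change goes with lower expression of the gonadotropin β-subunits in the fetus. Whether the 3 samples in each group represent different dams is not stated, and the p-values therefore reflect variation among these samples, part or all of which could be technical. The platform was the 1-colour Illumina RatRef-12 bead array. The arrays had median raw intensities between 92.5 and 120.8 units, detected between 47.4% and 54.5% of their probes, and correlated at 0.984 to 0.994 within a group. The third TCDD pituitary, labelled replicate 5, differed from all other pituitaries in its neuronal transcripts, and results that rest on it are given with and without it. The tissue labels were borne out by the markers: 10 of 10 tested pituitary markers were higher in control pituitaries than in control hypothalami, and 13 of 14 tested hypothalamic neuron markers were lower.

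GABA-A and glycine receptors are pentameric chloride channels that open when the transmitter binds, and in immature neurons, where intracellular chloride is high, they can depolarise the cell. AMPA, kainate and NMDA receptors are tetrameric cation channels that carry fast excitatory transmission, and NMDA receptors also admit calcium. Nicotinic receptors are pentameric cation channels opened by acetylcholine; different subunits build the receptors of neurons, of hair cells and of skeletal muscle. In the hypothalamus, GABA and glutamate are the main fast transmitters acting on the neurons that govern the pituitary, while endocrine cells of the pituitary also carry some of these channels. TCDD binds the aryl hydrocarbon receptor, a transcription factor whose core DNA motif is GCGTG.

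Promoter windows of 300 bases (250 before and 50 after the annotated start), from RefSeq's GRCr8 assembly of the rat genome, were found for 39 of the 48 genes. 5 of the windows are given below as the sequences behind the main patterns. Glra2 and Gabra5 had the largest deficits in the pituitary, and Chrnb1 and Chrna9 the largest excesses. Grin1 had more than 1 copy of the motif and one of the larger estimates for TCDD in the pituitary (0.70 ± 0.39). That estimate did not pass the test and rested on TCDD replicate 5, without which it was 0.07 ± 0.19. Grik1, whose window is not shown and held 1 match, had an estimate of 0.71 ± 0.55, and −0.18 ± 0.24 without replicate 5. Capitals mark GCGTG or its reverse complement CACGC. The windows are chrX:32651937-32652236 on the plus strand for Glra2, chr1:117516557-117516856 on the minus strand for Gabra5, chr10:55015058-55015357 on the minus strand for Chrnb1, chr14:42595620-42595919 on the minus strand for Chrna9 and chr3:28528705-28529004 on the minus strand for Grin1.
Glra2: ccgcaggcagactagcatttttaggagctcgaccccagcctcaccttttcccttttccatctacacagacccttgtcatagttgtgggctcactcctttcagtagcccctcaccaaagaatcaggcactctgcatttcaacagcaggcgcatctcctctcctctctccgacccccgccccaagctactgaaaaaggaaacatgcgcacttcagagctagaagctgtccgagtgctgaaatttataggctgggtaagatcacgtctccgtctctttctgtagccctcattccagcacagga
Gabra5: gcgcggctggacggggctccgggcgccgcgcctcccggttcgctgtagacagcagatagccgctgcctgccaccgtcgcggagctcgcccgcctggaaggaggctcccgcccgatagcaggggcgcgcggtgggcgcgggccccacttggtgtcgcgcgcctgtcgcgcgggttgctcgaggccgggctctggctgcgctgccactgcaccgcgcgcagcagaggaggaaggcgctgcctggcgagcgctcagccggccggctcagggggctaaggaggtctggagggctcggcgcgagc
Chrnb1: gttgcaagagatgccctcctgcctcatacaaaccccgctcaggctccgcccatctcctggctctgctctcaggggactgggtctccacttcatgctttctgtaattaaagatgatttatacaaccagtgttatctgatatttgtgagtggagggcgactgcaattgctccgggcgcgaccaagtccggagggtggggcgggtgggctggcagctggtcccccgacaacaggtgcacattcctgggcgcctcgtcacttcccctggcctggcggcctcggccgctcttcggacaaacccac
Chrna9: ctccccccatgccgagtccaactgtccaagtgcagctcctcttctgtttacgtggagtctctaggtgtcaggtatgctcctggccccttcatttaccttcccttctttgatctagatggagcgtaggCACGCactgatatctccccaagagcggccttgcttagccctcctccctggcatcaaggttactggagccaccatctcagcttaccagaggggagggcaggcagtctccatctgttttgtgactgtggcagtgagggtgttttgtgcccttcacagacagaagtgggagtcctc
Grin1: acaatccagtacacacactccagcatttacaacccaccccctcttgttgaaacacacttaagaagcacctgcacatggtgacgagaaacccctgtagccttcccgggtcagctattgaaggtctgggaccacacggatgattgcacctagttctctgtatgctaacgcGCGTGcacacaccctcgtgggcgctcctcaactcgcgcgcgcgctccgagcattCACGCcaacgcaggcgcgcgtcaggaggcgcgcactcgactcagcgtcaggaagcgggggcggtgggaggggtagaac

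The window of Grin1 held 2 matches, that of Chrna9 held 1, and those of Glra2, Gabra5 and Chrnb1 held 0. Over both strands, 12 of the 39 subunit windows held the motif, or 30.8%, against 29.7% of 33469 windows of the same length over all annotated genes. Those windows belonged to 27457 genes, some with several, while each subunit gene had 1 window, so the shares are not strictly like for like. The 12 subunit genes with the motif were Chrna9, Chrnb2, Chrnb4, Chrng, Gabra4, Gabrd, Gabrq, Glrb, Grik1, Grik3, Grin1 and Grin2d. The core CAGCACC of the element bound by the neuronal repressor REST was in 7.69% of the subunit windows and 6.78% of all windows, and its other core, GGACAGC, in 7.69% and 6.59%. The Gabra5 window held 42 CpG dinucleotides at a GC content of 76.3%, whereas the Glra2 window held 9 at 52.3%, beside a median of 11 CpG over the subunit windows and 7 over all windows. A match is only a match of letters, and no binding was measured in these samples.

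A probe was tested when its detection p-value, Illumina's test of a signal against negative-control beads, was under 0.05 on at least 3 of the 12 arrays. This kept 30 of the 49 subunit probes: 5 of 15 GABA-A, 3 of 4 glycine, 3 of 3 AMPA, 3 of 6 kainate, 3 of 6 NMDA and 13 of 15 nicotinic. Since a probe bright in a single group passes, the counts below cover the tested probes and not all subunits. Of the 19 probes left out, 14 were detected on no array: Gabra3, Gabra6, Gabrd, Gabre, Gabrg3, Gabrq, Gabrr1, Gabrr2, Gabrr3, Glra3, Grik3, Grin2a, Chrnb3 and a second probe for Grik5. Gabra4, Grik4 and Grin2d were detected on 2 arrays each, and Grin2c and Chrna2 on 1. The other Grik5 probe was detected on all 12 arrays, so that the pair of probes for this gene disagree. In total 10 subunit probes were detected on all 12 arrays. Levels below are log2 normalized intensities, on which brightness depends on the probe as well as on the transcript, so that levels are compared between arrays for 1 gene and never between genes.

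**Figure D1:**
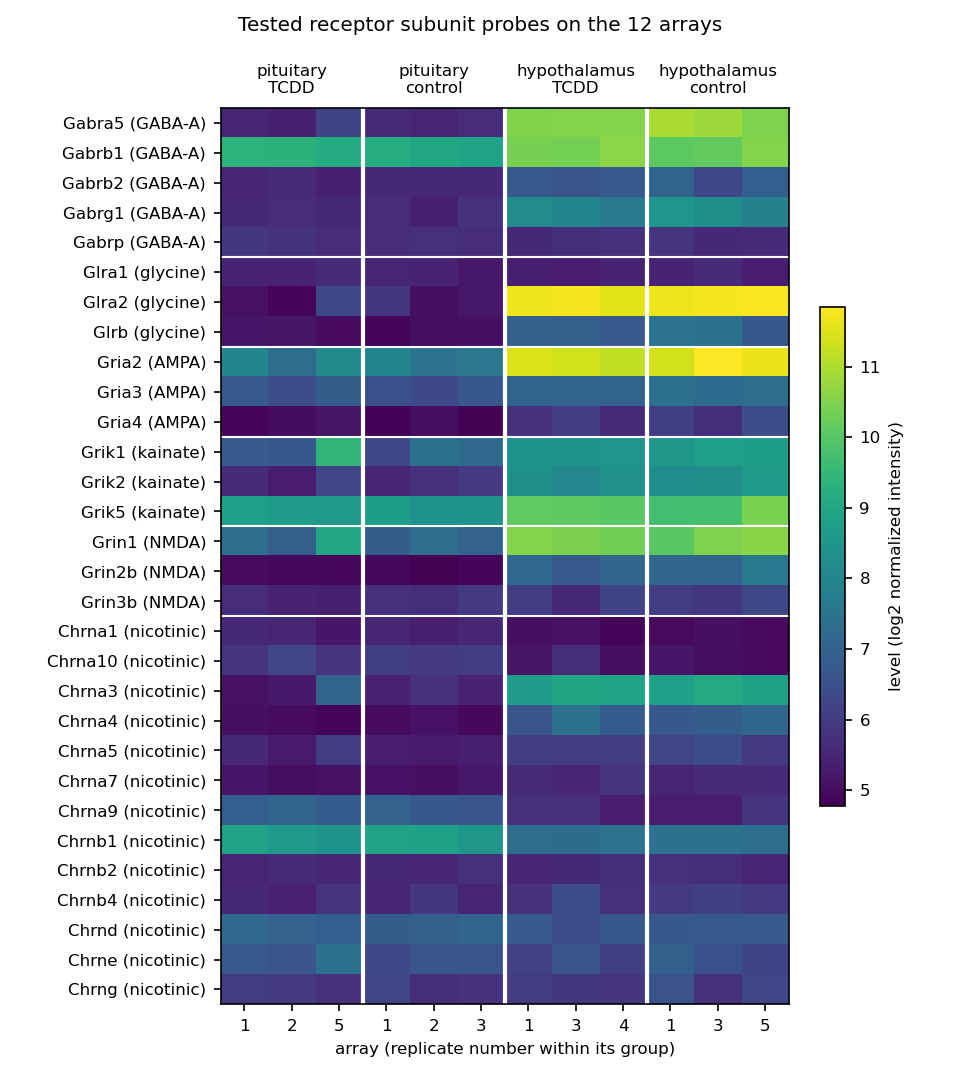
Level (colour, log2 normalized intensity) of each tested subunit probe (rows, grouped by receptor family) on each of the 12 arrays (columns, in 4 groups of 3, labelled by replicate number). Read along a row, most GABA-A, glycine and glutamate receptor subunits are brighter on the hypothalamic arrays, Chrnb1 and Chrna9 are brighter on the pituitary arrays, and Grik1, Grin1 and Chrna3 are brighter on TCDD replicate 5 than on the other pituitary arrays.

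Most subunits with a tissue difference were lower in the pituitary than in the hypothalamus. In controls 22 of the 30 tested probes differed between the tissues at an adjusted p under 0.05 (limma moderated test, Benjamini-Hochberg over 13018 probes), or 73.3%, against 69.5% of all tested probes. Of these, 18 were lower in the pituitary, which is 60.0% of the subunits against 35.9% of all probes, and 4 were higher, 13.3% against 33.7%. The median difference was −1.04 on the log2 scale over the subunits and −0.05 over all tested probes, and −0.76 over the subunits when each probe not above background in a group stood at its bound. Of the 17 tested probes for GABA-A, glycine and glutamate receptors, 14 were lower in the pituitary and 0 higher, and of the 13 nicotinic probes 4 were lower and 4 higher. Markers of neurons moved with this difference: 12 of 15 tested were lower in control pituitaries, and their summed linear level was 19000 to 25200 in control pituitaries and 106000 to 114000 in control hypothalami. Their part in the result was not tested. In whole tissue, fewer cells of a type and less RNA per cell cannot be told apart.

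Among the GABA-A receptor genes, Gabra5, which encodes the α5 subunit of mostly extrasynaptic receptors, had log2 levels of 5.50, 5.41 and 6.24 in TCDD pituitaries, 5.63, 5.53 and 5.69 in control pituitaries, 10.52, 10.53 and 10.54 in TCDD hypothalami, and 10.95, 10.82 and 10.49 in control hypothalami. The tissues did not overlap, and in controls the pituitary was lower by −5.14 ± 0.19 (log2 difference ± SE, adjusted p = 4.39e-10), or 35.2-fold. All 3 control pituitaries detected it, but their mean of 5.62 lies near background, so that fold is set against a dim level. Gabrg1, for the γ1 subunit, had levels of 5.57, 5.67 and 5.58 in TCDD pituitaries, 5.67, 5.39 and 5.78 in control pituitaries, 8.18, 8.01 and 7.72 in TCDD hypothalami, and 8.50, 8.31 and 7.88 in control hypothalami, with a difference of −2.62 ± 0.16 in controls (adjusted p = 2.83e-08). Gabrb1, for the β1 subunit, was bright on all 12 arrays, at 9.36, 9.31 and 9.14 in TCDD pituitaries, 9.15, 9.03 and 8.89 in control pituitaries, 10.41, 10.36 and 10.62 in TCDD hypothalami, and 10.07, 10.14 and 10.55 in control hypothalami. Its difference in controls was −1.23 ± 0.13 (adjusted p = 4.04e-06), so the pituitary was lower here while remaining well above background. Gabrb2, for the β2 subunit, also was lower in the pituitary, by −1.18 ± 0.16 (adjusted p = 2.15e-05). Gabrp, for the π subunit known mainly from epithelia, had a difference of 0.01 ± 0.10 (adjusted p = 0.929), with a 95% interval of −0.22 to 0.24. Its mean levels were near background, at 5.70 in control pituitaries and 5.69 in control hypothalami, so this narrow interval says little.

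The glycine receptor gene Glra2, which encodes the α2 subunit that predominates in fetal neurons, had the largest tissue difference of any tested subunit. Its levels were 5.11, 4.91 and 6.30 in TCDD pituitaries, 5.93, 5.07 and 5.23 in control pituitaries, 11.68, 11.75 and 11.55 in TCDD hypothalami, and 11.68, 11.76 and 11.78 in control hypothalami. In controls the pituitary was lower by −6.33 ± 0.30 (adjusted p = 3.07e-09), an 80.5-fold difference measured against a tissue in which 1 of 3 arrays detected the probe. Glrb, whose β subunit ties glycine receptors to the scaffold gephyrin, was above background on 0 of 3 arrays of either pituitary group. It had levels of 5.17, 5.15 and 4.99 in TCDD pituitaries, 4.89, 5.03 and 5.07 in control pituitaries, 6.94, 6.95 and 6.81 in TCDD hypothalami, and 7.48, 7.44 and 6.72 in control hypothalami. Control hypothalami were at least 3.27-fold higher than control pituitaries (fitted difference −2.21 ± 0.17, adjusted p = 1.34e-07). A bound of this kind sets the bright group's mean against the dimmest signal counted as detected on each array of the dim group, or the probe's own signal where that is higher. It carries no sampling error, and an adjusted p beside it belongs to the fitted difference. Glra1, the α1 subunit of the adult receptor, stayed near background in both tissues, with a difference of −0.06 ± 0.11 (adjusted p = 0.630).

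All 3 tested AMPA receptor genes were lower in the pituitary. Gria2, for the GluA2 subunit that makes AMPA receptors impermeable to calcium, had levels of 8.03, 7.31 and 8.15 in TCDD pituitaries, 7.99, 7.47 and 7.57 in control pituitaries, 11.44, 11.36 and 11.18 in TCDD hypothalami, and 11.37, 11.85 and 11.63 in control hypothalami. Its difference in controls was −3.94 ± 0.21 (adjusted p = 7.86e-09), although every pituitary array detected it. Gria3 (GluA3) was at 6.75, 6.48 and 6.86 in TCDD pituitaries, 6.50, 6.33 and 6.70 in control pituitaries, 7.03, 7.03 and 7.03 in TCDD hypothalami, and 7.38, 7.24 and 7.30 in control hypothalami, with a smaller difference of −0.80 ± 0.12 (adjusted p = 5.93e-05). Gria4 (GluA4) was not above background on any pituitary array. It was at 4.91, 5.01 and 5.16 in TCDD pituitaries, 4.86, 5.05 and 4.82 in control pituitaries, 5.77, 6.01 and 5.61 in TCDD hypothalami, and 6.08, 5.71 and 6.48 in control hypothalami, at least 1.5-fold higher in control hypothalami than in control pituitaries (fitted difference −1.18 ± 0.17, adjusted p = 4.86e-05).

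The kainate receptor genes followed the same order of tissues. Grik2 (GluK2), which forms the channel, had levels of 5.65, 5.34 and 6.26 in TCDD pituitaries, 5.52, 5.72 and 5.96 in control pituitaries, 8.33, 8.04 and 8.37 in TCDD hypothalami, and 8.21, 8.27 and 8.69 in control hypothalami, a difference of −2.66 ± 0.21 in controls (adjusted p = 2.48e-07). Grik5 (GluK5), which needs a partner such as GluK2 to form a channel, differed by −1.44 ± 0.16 (adjusted p = 5.68e-06) on its detected probe. Grik1 (GluK1) differed by −1.72 ± 0.55 (adjusted p = 0.0139), with the widest spread of all tested subunits, and this call was lost without control pituitary replicate 1 (−1.39, adjusted p = 0.0604) and with the authors' processed values (−0.55, adjusted p = 0.123).

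Of the NMDA receptor genes, Grin1 encodes the obligatory GluN1 subunit. Its levels were 7.33, 6.91 and 9.01 in TCDD pituitaries, 6.86, 7.31 and 6.99 in control pituitaries, 10.53, 10.45 and 10.32 in TCDD hypothalami, and 10.04, 10.47 and 10.60 in control hypothalami, so it was lower in control pituitaries by −3.31 ± 0.39 (adjusted p = 8.18e-06). Grin2b, for the GluN2B subunit typical of developing neurons, was above background on no pituitary array. It was at 4.98, 4.93 and 4.92 in TCDD pituitaries, 4.92, 4.78 and 4.89 in control pituitaries, 7.19, 6.75 and 7.12 in TCDD hypothalami, and 7.11, 7.06 and 7.61 in control hypothalami, at least 3.39-fold higher in control hypothalami than in control pituitaries (fitted difference −2.40 ± 0.15, adjusted p = 2.61e-08). The genes of the other GluN2 subunits, Grin2a, Grin2c and Grin2d, were not tested. Grin3b (GluN3B) had levels of 5.69, 5.45 and 5.39 in TCDD pituitaries, 5.73, 5.70 and 5.97 in control pituitaries, 6.06, 5.58 and 6.20 in TCDD hypothalami, and 6.02, 5.93 and 6.31 in control hypothalami, with a difference of −0.28 ± 0.16 in controls (adjusted p = 0.139).

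Of the neuronal nicotinic subunits, Chrna3, which with β4 forms the receptor of autonomic ganglia, was at 5.09, 5.26 and 7.04 in TCDD pituitaries, 5.42, 5.75 and 5.46 in control pituitaries, 8.68, 8.95 and 8.86 in TCDD hypothalami, and 8.76, 9.10 and 8.79 in control hypothalami. It was lower in control pituitaries, of which 1 of 3 detected it, by −3.34 ± 0.38 (adjusted p = 5.15e-06). Chrna4, the α4 subunit of the main high-affinity brain receptor, was above background on no pituitary array and at least 2.66-fold higher in control hypothalami than in control pituitaries (fitted difference −1.91 ± 0.18, adjusted p = 8.42e-07). Chrna5, an accessory subunit, had levels of 5.60, 5.28 and 6.04 in TCDD pituitaries, 5.32, 5.29 and 5.36 in control pituitaries, 6.06, 6.01 and 6.03 in TCDD hypothalami, and 6.26, 6.48 and 5.97 in control hypothalami, where it was at least 1.66-fold higher than in control pituitaries (fitted difference −0.91 ± 0.17, adjusted p = 3.81e-04). Chrna7, which forms homomeric calcium-permeable receptors, was detected on 1 of 3 TCDD and 2 of 3 control hypothalamic arrays. Its fitted difference in controls was −0.44 ± 0.10 (adjusted p = 0.00164). The bound was only 1.06-fold higher in control hypothalami than in control pituitaries, so the size of the difference is not known. Chrnb2, the usual partner of α4, had a difference of −0.03 ± 0.10 (adjusted p = 0.818), and Chrnb4 one of −0.37 ± 0.18 (adjusted p = 0.0858). Mean levels of Chrnb2 were near background, at 5.63 in control pituitaries and 5.65 in control hypothalami, so its small difference says little.

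Chrna9 and Chrna10, which together form the receptor of cochlear hair cells, were higher in the pituitary. Chrna9 had levels of 6.90, 7.07 and 6.84 in TCDD pituitaries, 6.99, 6.72 and 6.68 in control pituitaries, 5.72, 5.77 and 5.32 in TCDD hypothalami, and 5.31, 5.34 and 5.88 in control hypothalami, a difference of 1.28 ± 0.17 in controls (adjusted p = 1.90e-05), or 2.43-fold. It was detected on 2 of 3 TCDD and 1 of 3 control hypothalamic arrays, so that fold is set against a level near background. Chrna10 was at 5.87, 6.26 and 5.88 in TCDD pituitaries, 6.10, 5.95 and 6.02 in control pituitaries, 5.15, 5.70 and 5.06 in TCDD hypothalami, and 5.20, 5.04 and 4.98 in control hypothalami. Every pituitary array detected both genes, no control hypothalamus detected Chrna10, and control pituitaries were at least 1.37-fold higher for it (fitted difference 0.95 ± 0.16, adjusted p = 1.82e-04).

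The subunits of the muscle receptor are α1, β1 and δ with either γ in the fetus or ε in the adult. Chrnb1 (β1) was higher in the pituitary, with levels of 8.85, 8.61 and 8.43 in TCDD pituitaries, 8.92, 8.82 and 8.51 in control pituitaries, 7.30, 7.29 and 7.47 in TCDD hypothalami, and 7.42, 7.44 and 7.34 in control hypothalami. Its difference of 1.35 ± 0.13 in controls (adjusted p = 1.16e-06, 2.54-fold) was the largest excess among the tested subunits. Chrna1 (α1) was close to background everywhere, at 5.59, 5.50 and 5.21 in TCDD pituitaries, 5.55, 5.37 and 5.54 in control pituitaries, 5.04, 5.11 and 4.91 in TCDD hypothalami, and 4.97, 5.08 and 4.99 in control hypothalami. It passed the test at 0.47 ± 0.11 (adjusted p = 0.00218), but since no hypothalamic array detected it and its pituitary level lay under the detection bound, no fold is given, and with the authors' processed values the call was lost (adjusted p = 0.114).

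Chrnd (δ) had levels of 7.19, 6.99 and 6.90 in TCDD pituitaries, 6.86, 6.92 and 7.09 in control pituitaries, 6.80, 6.49 and 6.71 in TCDD hypothalami, and 6.72, 6.77 and 6.78 in control hypothalami. In controls its difference of 0.20 ± 0.11 did not pass the test (adjusted p = 0.123), though it did after median scaling (0.36, adjusted p = 0.0143) and with the authors' values (0.13, adjusted p = 0.00474). Chrne (ε) was at 6.76, 6.65 and 7.37 in TCDD pituitaries, 6.30, 6.66 and 6.62 in control pituitaries, 6.14, 6.63 and 6.09 in TCDD hypothalami, and 6.98, 6.56 and 6.19 in control hypothalami, with overlapping control groups and a difference of −0.05 ± 0.23 (adjusted p = 0.851). Chrng (γ) was at 6.03, 5.99 and 5.76 in TCDD pituitaries, 6.26, 5.71 and 5.79 in control pituitaries, 6.03, 5.89 and 5.84 in TCDD hypothalami, and 6.59, 5.79 and 6.28 in control hypothalami, with a difference of −0.30 ± 0.19 (adjusted p = 0.181). Its call appeared only when control hypothalamus replicate 3 (−0.52, adjusted p = 0.0193) or control pituitary replicate 1 (−0.47, adjusted p = 0.0499) was left out. Of 10 tested skeletal muscle markers, 6 were higher and 1 lower in control pituitaries than in control hypothalami, and Ckm, Myl11 and Tnni2 were detected on no hypothalamic array. Between the TCDD arrays 3 of the 10 markers were higher in the pituitary and 2 lower, and Chrnb1 was higher by 1.28 ± 0.13. The summed linear level of the 10 markers was 1260 to 1810 in control pituitaries and 2090 to 2500 in control hypothalami. Acta1, for skeletal α-actin, was the 1 that was lower in control pituitaries (−2.16 ± 0.27, adjusted p = 1.11e-05). It made up most of the sum in the hypothalami, with log2 levels of 10.93 and 10.69 in control hypothalamus replicates 1 and 3. The sums are therefore not compared between the tissues. The part of the muscle markers in the result was not tested.

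**Figure D2:**
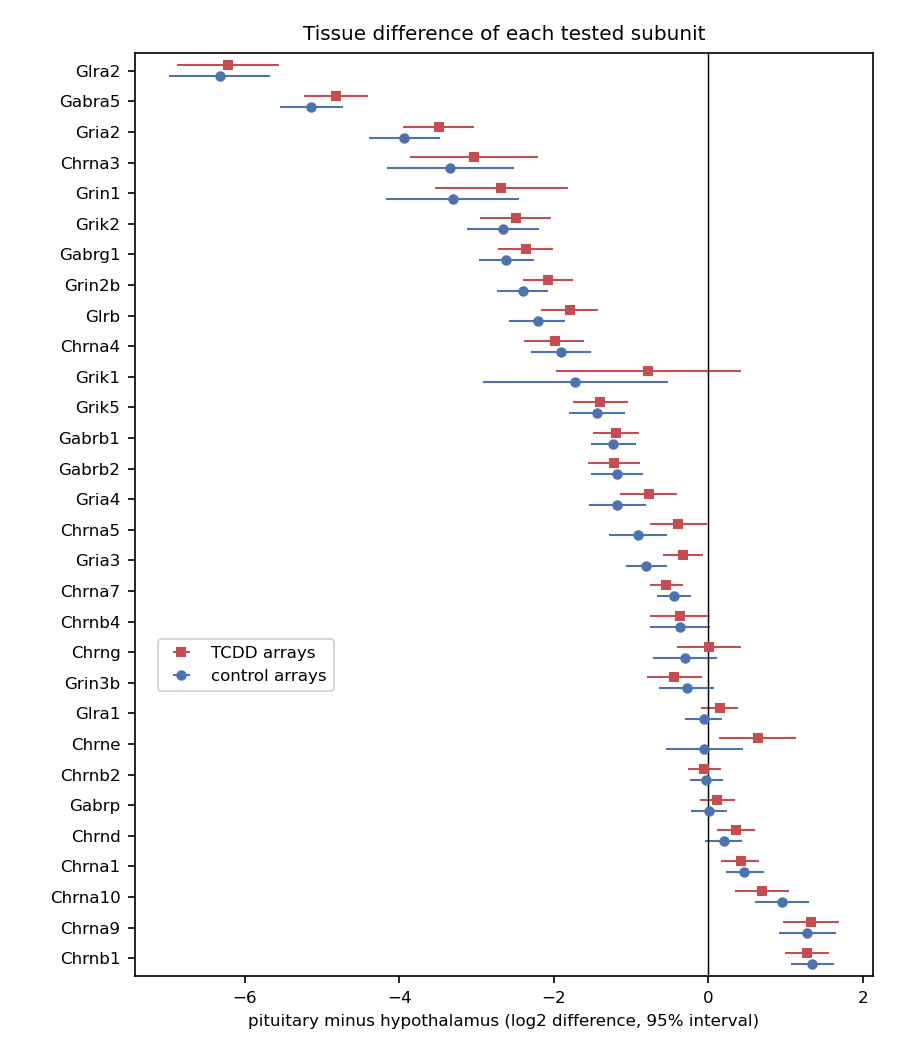
Pituitary minus hypothalamus for each tested subunit (log2 difference with its 95% interval), over the TCDD arrays (squares) and over the control arrays (circles), ordered by the control value. Glra2 lies at −6.22 over the TCDD arrays and −6.33 over the control arrays, and Chrnb1 at 1.28 and 1.35; Grik1 has the widest intervals.

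The tissue difference was also measured between the TCDD arrays, whose group means are not used in the comparison of controls. Both comparisons share the normalization, the filter and the model's estimate of the spread. Between the TCDD arrays 23 of 30 subunit probes passed, against 70.2% of all probes. In the pituitary 17 were lower, against 36.8% of all probes, and 6 higher, against 33.4%. The sets shared 20 subunits with the same sign, which is 87.0% of the calls in TCDD arrays and 90.9% of the calls in controls. Chrnd (0.36 ± 0.11, adjusted p = 0.0109), Chrne (0.64 ± 0.23, adjusted p = 0.0249) and Grin3b (−0.44 ± 0.16, adjusted p = 0.0290) passed in the TCDD arrays alone, and Chrna5 and Grik1 in the controls alone. The difference between these tissue differences is the same quantity as the difference of the TCDD effects, which passed for 0 subunits. Without TCDD pituitary replicate 5, 24 subunits passed, 19 lower and 5 higher. The share of all probes that passed in that fit is not given, so these counts are not compared with those above. Chrne (0.41, adjusted p = 0.109) and Grin3b (−0.37, adjusted p = 0.0848) did not pass in that fit. Grik1 (−1.66, adjusted p = 5.55e-05), Chrna5 (−0.58, adjusted p = 0.00313) and Chrnb4 (−0.49, adjusted p = 0.0361) did.

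Several subunit genes neighbour each other in the rat genome (gene order of GRCr8), and their differences between control tissues are given side by side, with no test between neighbours. In the neighbouring genes Chrna5, Chrna3 and Chrnb4 the differences in controls were −0.91, −3.34 and −0.37, the last of which did not pass, and Chrna5 was above background in no control pituitary. Gabrb1 (−1.23) and Gabrg1 (−2.62), which lie in a group with Gabra4 and Gabra2, were both lower in the pituitary, as were the neighbours Gria2 (−3.94) and Glrb (−2.21). The neighbours Chrnd (0.20) and Chrng (−0.30) both missed the threshold.

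Genes that assemble, anchor or assist these receptors were counted against the same background, in which 35.9% of all tested probes were lower and 33.7% higher in control pituitaries and the median was −0.05. Of 22 tested partners of glutamate receptors, 18 were lower and 2 higher, with a median of −1.42. They included the AMPA receptor auxiliary subunits Cacng3 (−3.86 ± 0.21, adjusted p = 1.01e-08) and Cnih2 (−1.63 ± 0.11, adjusted p = 6.92e-08), the kainate receptor auxiliary subunit Neto2 (−2.55 ± 0.13, adjusted p = 5.08e-09) and the scaffold Grip2 (−2.53 ± 0.14, adjusted p = 1.24e-08), while Homer2 (1.16 ± 0.14) and Dlg1 (1.11 ± 0.16) were higher. Of 10 tested partners of inhibitory receptors, 4 were lower and 2 higher, with a median of −0.13. The chloride exporter Slc12a5 (KCC2), which sets the direction of GABA and glycine currents, differed by −3.94 ± 0.17 (adjusted p = 1.58e-09), and Gphn, the scaffold gephyrin, by −1.35 ± 0.11 (adjusted p = 2.56e-07), whereas the receptor trafficking gene Gabarap was higher by 0.71 ± 0.09 (adjusted p = 2.00e-05). Of 5 tested nicotinic partners 3 were lower, led by the receptor chaperone Tmem35a (−3.49 ± 0.16, adjusted p = 2.43e-09), and 0 were higher, with a median of −0.67. Among 16 other transmitter receptor genes, 8 were lower, such as the GABA-B receptor genes Gabbr1 (−2.76 ± 0.17) and Gabbr2 (−3.77 ± 0.61), and 4 were higher, among them the serotonin-gated channel Htr3a (1.70 ± 0.11, adjusted p = 3.47e-08) and the ATP-gated channels P2rx4 (1.09 ± 0.11) and P2rx2 (1.25 ± 0.15).

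After TCDD, no subunit passed the test in the pituitary. Of the 30 tested probes 0 were called, against 0.668% of all 13018 tested probes, and 0 had an unadjusted p under 0.05, against 11.5% of all probes. The smallest adjusted p was 0.519. The median difference between TCDD and control pituitaries was 0.09 on the log2 scale, with 20 of 30 subunits above 0, against a median of −0.01 and 48.7% above 0 over all probes. Of the 22 subunits detected on at least 3 of the 6 pituitary arrays, 20 had a 95% interval within 1 log2 unit of 0, the others being Grik1 and Grin1. For the 8 detected on fewer arrays (Chrna3, Chrna4, Chrna5, Chrna7, Glra2, Glrb, Gria4 and Grin2b) the interval says little, since the level lies at or near background. Some of the 22, such as Chrna1, Glra1 and Chrnb2, also lie near background. The offset added in processing shrinks differences of such dim probes, so their narrow intervals say little too. No alternative processing gave a call.

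The 6 subunits of smallest p in the pituitary were Chrna5, Gabrb1, Grin3b, Grin1, Chrne and Gria3, whose levels on every array are given above. Chrna5 was detected on 2 of 3 TCDD and 0 of 3 control pituitaries, and its groups overlapped. Its fitted difference of 0.32 ± 0.17 (−0.05 to 0.69, adjusted p = 0.519) did not pass. The TCDD mean lay 1.1-fold above the detection bound of the controls, a figure that carries no sampling error. Gabrb1 differed by 0.24 ± 0.13 (−0.05 to 0.54), with 1 TCDD array below the highest control. Grin3b was lower on all 3 TCDD arrays than on any control array, by −0.29 ± 0.16 (−0.65 to 0.06, adjusted p = 0.541). It was detected on 1 of 3 TCDD and 3 of 3 control pituitaries, so its TCDD levels lie at or near background. Grin2b, in which all 3 TCDD arrays lay above the controls, was at background on all 6, so that those values have no order. The groups failed to overlap for these 2 of 30 subunits, against 20.0% of all probes. Grin1 differed by 0.70 ± 0.39 (−0.16 to 1.55), Chrne by 0.40 ± 0.23 (−0.10 to 0.90) and Gria3 by 0.19 ± 0.12 (−0.07 to 0.44), each with overlapping groups. Of the muscle receptor subunits, Chrnb1 differed by −0.12 ± 0.13, Chrna1 by −0.05 ± 0.11, Chrnd by 0.07 ± 0.11 and Chrng by 0.01 ± 0.19, and none passed. In the same pituitaries 4 of 10 tested skeletal muscle markers fell with TCDD, and their summed level was 715 to 1080 in TCDD pituitaries and 1260 to 1810 in control pituitaries. Their part in these values was not tested.

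The larger TCDD estimates in the pituitary rested on 1 array, TCDD replicate 5. On it 4 of 30 subunits, or 13.3%, exceeded the mean of the other 5 pituitary arrays by over 1 log2 unit, against 2.24% of all tested probes, and on each of those 5 arrays 0 subunits did. Grik1, which is singled out here after its values were seen, had levels of 6.81, 6.74 and 9.44 in TCDD pituitaries and 6.30, 7.38 and 7.19 in control pituitaries, so that replicate 5 exceeded the mean of the others by 2.55. Its level on that array was also above the 8.40 to 8.77 of the hypothalamic arrays. The excess was 1.92 for Grin1, 1.64 for Chrna3 and 1.05 for Glra2. Markers of sensory neurons were also highest on replicate 5 among the pituitary arrays. The summed linear level of the 6 tested markers was 2610, 2380 and 28000 in TCDD pituitaries 1, 2 and 5. It was 772, 5180 and 3490 in control pituitaries 1, 2 and 3, 2310 to 2450 in TCDD hypothalami and 2410 to 2760 in control hypothalami. In the hypothalami most of the sum was Tac1, at 11.20, 11.14 and 10.91 in controls. Between control tissues Tac1 was the 1 marker called lower in the pituitary (−3.05 ± 0.57, adjusted p = 4.07e-04) and Prph the 1 called higher (2.81 ± 0.89, adjusted p = 0.0131). The sums are therefore compared among pituitary arrays only. Over the other 5 pituitary arrays Glra2 did not follow the marker sum, being highest (5.93) on control 1, where the sum was lowest. Scn10a, a sodium channel typical of pain-sensing neurons, was at 8.35, 8.21 and 12.17 in TCDD pituitaries and 5.99, 8.72 and 8.10 in control pituitaries. General neuron markers summed to 59500 on replicate 5, against 17500 to 18400 on the other TCDD pituitaries and 19000 to 25200 in control pituitaries. Markers of hypothalamic neurons summed to 5480 on replicate 5, against 2500 and 1860 on TCDD pituitaries 1 and 2 and 2790 to 2970 in control pituitaries. Which cells the marker signals came from, and the part of such cells in the levels, was not tested. Without replicate 5 the estimate for Grik1 was −0.18 ± 0.24 in place of 0.71 ± 0.55, that for Grin1 0.07 ± 0.19 and that for Chrna5 0.11 ± 0.14. Chrne was then at 0.18 ± 0.22, Gria3 at 0.10 ± 0.13 and Glra2 at −0.39 ± 0.20. Gabrb1, at 0.31 ± 0.15, and Grin3b, at −0.23 ± 0.18, changed little without replicate 5. None of these passed. The median over the 30 subunits was then 0.04, with 18 above 0, and the smallest adjusted p was 0.392, for Chrna3 (−0.36 ± 0.14).

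**Figure D3:**
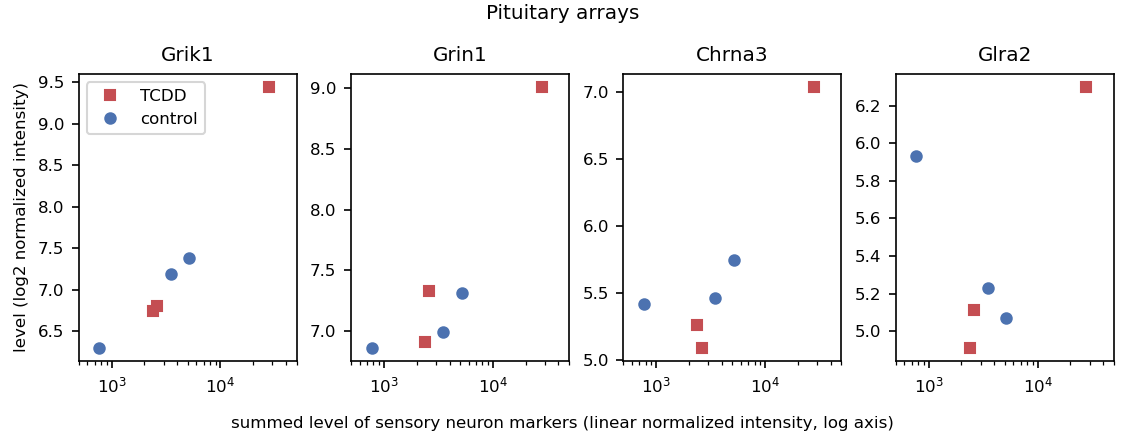
Levels of Grik1, Grin1, Chrna3 and Glra2 (vertical axes, log2 normalized intensity, scaled separately) on the 3 TCDD (squares) and 3 control (circles) pituitary arrays, against the summed level of 6 sensory neuron markers (horizontal axis, linear normalized intensity on a log scale). TCDD replicate 5 lies at the upper right of each panel, with a marker sum of 28000.

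In the hypothalamus no subunit passed the test with TCDD either. Of the 30 tested probes 0 were called, against 0.023% of all probes, and the smallest adjusted p was 0.425. The median difference was −0.08, with 22 of 30 subunits below 0, while 50% of all probes were above 0. Of the 27 subunits detected on at least 3 of the 6 hypothalamic arrays, 26 had a 95% interval within 1 log2 unit of 0, the exception being Grik1 (−1.43 to 0.96). Chrna1, Chrna10 and Glra1 were detected on fewer, and their intervals say little. The same holds for those of the 27 that lie near background, such as Chrna7 and Chrnb2. The only subunit with an unadjusted p under 0.05 was Gria3, against 10.9% of all probes. Its 3 TCDD hypothalami stood at the same level of 7.03, below the lowest control of 7.24, and the difference was −0.28 ± 0.12 (95% interval −0.54 to −0.02, adjusted p = 0.425). The groups also did not overlap for Grik1 (8.45, 8.40 and 8.47 in TCDD hypothalami, 8.52, 8.77 and 8.73 in control hypothalami), and 13.9% of all probes had groups that did not overlap.

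The other 5 subunits of smallest p in the hypothalamus all had overlapping groups. They were Glrb at −0.31 ± 0.17 (adjusted p = 0.534), Gria4 at −0.29 ± 0.17 (0.577), Grin2b at −0.24 ± 0.15 (0.599), Gabrb1 at 0.21 ± 0.13 (0.606) and Gabrg1 at −0.26 ± 0.16 (0.607), with adjusted p in parentheses. The 3 AMPA probes had estimates between −0.29 and −0.28, the 3 glycine probes between −0.31 and −0.08, and the 13 nicotinic probes between −0.30 and 0.23. Glra2, whose level is far above background in this tissue, differed by −0.08 ± 0.30, and Gabra5 by −0.22 ± 0.19. Of the muscle receptor subunits, Chrnb1 differed by −0.05 ± 0.13, Chrna1 by 0.01 ± 0.11, Chrnd by −0.09 ± 0.11, Chrne by −0.29 ± 0.23 and Chrng by −0.30 ± 0.19.

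**Figure D4:**
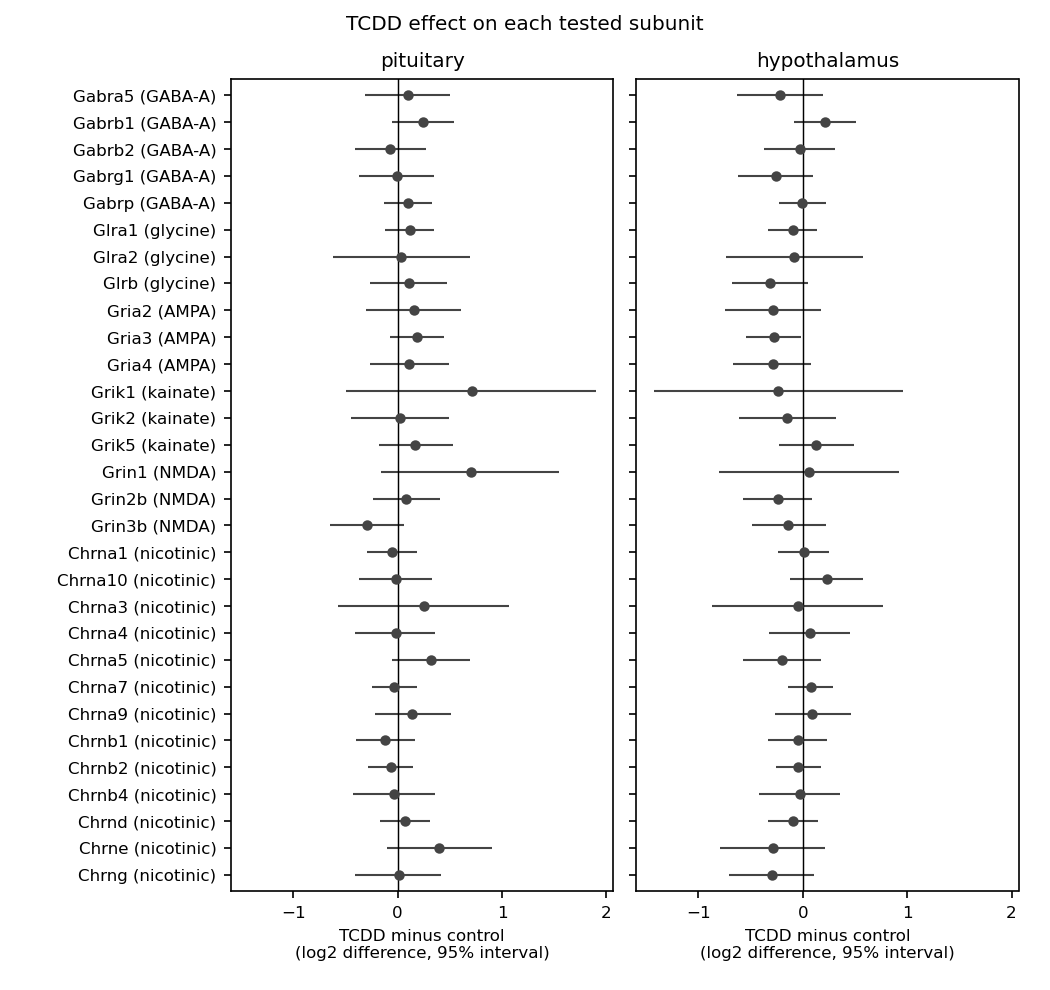
TCDD minus control for each tested subunit (log2 difference with its 95% interval) in the pituitary (left) and the hypothalamus (right), with the receptor family in parentheses. Gria3 in the hypothalamus (−0.28) has the only interval that leaves out 0, before adjustment for the number of probes, and Grik1 and Grin1 have the widest intervals in the pituitary.

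The effects of TCDD were set against each other with the interaction term of the model, as the effect in the pituitary minus that in the hypothalamus. None of the 30 subunits passed, against 0.2% of all probes, and Gria3 had the smallest adjusted p (0.47 ± 0.17, adjusted p = 0.314). It was the only subunit with an unadjusted p under 0.05, against 11.8% of all probes. The median over the subunits was 0.16.

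The receptor partners and the other transmitter receptor genes, 53 tested in all, also had 0 calls in either tissue with TCDD and 0 for the difference of the effects. Among the glutamate receptor partners, Grip2 had the smallest p in the pituitary (−0.54 ± 0.14, adjusted p = 0.151), and it passed when control hypothalamus replicate 1 was left out (−0.55, adjusted p = 0.0337). The serotonin-gated channel gene Htr3a differed by 0.45 ± 0.11 in the pituitary (adjusted p = 0.113). It passed in the same direction without background correction (adjusted p = 0.0491), with array weights (0.0360) and with the authors' processed values (0.0223). Of the nicotinic partners, Agrn, which encodes the receptor-clustering protein agrin, had the smallest p in the pituitary (0.36 ± 0.12, adjusted p = 0.244) and Ly6h in the hypothalamus (0.43 ± 0.12, adjusted p = 0.287). Of the inhibitory partners, Trak2 (−0.17 ± 0.17, adjusted p = 0.764) in the pituitary and Plcl1 (−0.25 ± 0.09, adjusted p = 0.349) in the hypothalamus had the smallest.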

How the data were processed

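Intensities per probe and array, with detection p-values, were deposited by the authors as non-normalized values, per the file headers. The sources used here name no scanner software. The authors' processed table, whose values resemble log2 but whose exact transform is not stated, served only as an alternative. Biotin-labelled cRNA was made from total RNA, per the labels' protocols. The 22523 probes were background-corrected from the detection p-values with an offset of 16, quantile-normalized over all 12 arrays and log2-transformed by neqc of limma 3.58.1 (R 4.3.3). The offset shrinks differences of dim probes, and quantile normalization gives both tissues 1 distribution. Probes detected (p under 0.05) on at least 3 arrays were tested (13018 of 22523) in 1 limma model with 4 group means, with two-sided moderated tests (8 residual and 4.19 prior degrees of freedom) and Benjamini-Hochberg adjustment at 0.05. The script was tested on simulated data. The number of arrays limits the precision.

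Symbols came from the platform's annotation (13793 probes with 1 symbol, 8730 with none, 0 with several) and were checked by gene identifier. The members, gene lists and alternatives were chosen with earlier results of these data known. Levels on every array are given for any member called with TCDD or, failing that, the 6 of smallest p per tissue, for the 8 largest tissue differences called in each direction in controls, and for the muscle receptor set; of partner genes, up to 4 per list by smallest p, or 2 where none passed, with a few added after their values were seen (Homer2, Dlg1, Cnih2, Gabarap, Gabbr2, P2rx2 and P2rx4). Same-numbered samples did not deviate together (correlations of −0.07 to 0.11), so numbers were not treated as pairs. The alternatives were no background correction, median scaling, the authors' values, no filter, a detection p under 0.01, an intensity trend, array weights, each tissue alone, a replicate block, and each array left out in turn.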

Additional observations from a re-analysis of the deposited data

How the results depend on the processing

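Of the 22 subunits that differed between control tissues, 18 passed in every setting and none reversed. Chrna7 and Gria4 were lost only where they were no longer tested, Chrna1 there and with the authors' values (0.06, adjusted p = 0.114), and Grik1 with the authors' values (−0.55, adjusted p = 0.123) and without control pituitary replicate 1. The count ran from 19 to 24 in controls and from 19 to 24 in TCDD arrays. For TCDD the count of subunits was 0 in either tissue and for the difference under every setting. The count of partner genes called in the pituitary was 1 with array weights (Htr3a), 1 without background correction (Htr3a), 1 when the authors' values were used (Htr3a), and 0 to 1 over the fits that left out an array (Grip2).

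Among the members named by rule in a comparison, the estimates that changed sign were uncalled. Outside them, Grik1, Chrna3 and Glra2 changed sign for TCDD in the pituitary without TCDD replicate 5 (−0.18, −0.36 and −0.39). With arrays left out in turn, Chrna1 ran from −0.13 to 0.06 for TCDD in the pituitary and from −0.04 to 0.06 in the hypothalamus, Chrnd from −0.01 to 0.14 and Chrng from −0.10 to 0.17 in the pituitary, and Chrne from −0.25 to 0.15 between control tissues. Chrne was 0.09 with median scaling and 0.03 with the authors' values between control tissues, Chrng was −0.00 with the authors' values and Chrna1 0.01 with array weights for TCDD in the pituitary. The cause was not tested.

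The replicate numbers are shared by label only. With the replicate number as a block, Chrna1 was 0.09 for TCDD in the pituitary, and the counts of called subunits stayed at 0 with TCDD in either tissue, 0 for the difference of the effects, 22 between control tissues and 23 between TCDD tissues. Subunits near background, such as Chrna1, Chrna7 and Gria4, are limited by signal over background, and the 3 arrays per group limit every estimate.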
